A study of Oryza sativa with 15 samples.

Results

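The 5 HSFA2 genes of rice, HSFA2A (LOC_Os03g53340.MSUv7.0), HSFA2B (LOC_Os07g08140.MSUv7.0), HSFA2C (LOC_Os10g28340.MSUv7.0), HSFA2D (LOC_Os03g06630.MSUv7.0) and HSFA2E (LOC_Os03g58160.MSUv7.0), are named as heat shock transcription factor genes of class A, although the reference annotation lists HSFA2C as a transcribed pseudogene, and whether HSFA2C codes for protein was not checked here. They were taken by locus identifier, not by expression, as 5 of the 24073 genes in the count table, and each of the 5 passed the filter on low counts that 20462 genes passed. Whole shoots of Oryza sativa seedlings, of the genotype Nipponbare in every group, gave 15 libraries of messenger RNA that form 5 groups of 3. Seeds germinated for 3 days, were planted 7 to a pot, and plants grew for 10 days with 12 h of light at 30 °C, 12 h of dark at 27 °C and 90% humidity, with pots returned daily to a target weight. The wet control stood at a soil water content of 3 g water per g soil, mild drought at 1.5 g per g and severe drought at 1.25 g per g, and none of these was heated. For heat, pots of the wet condition were moved to 40 °C for 30 min or 60 min, and all shoots were frozen 6 h after dawn. Drought thus spanned the whole growth in pots, and heat only its last minutes. Whether replicates were separate pots is not stated in the labels, and p-values therefore measure a spread between samples that may partly be technical.

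Heat shock factors bind heat shock elements in promoters as trimers and switch on genes for chaperones. Class A factors carry an activation domain, which factors of classes B and C lack, and several class B factors act as repressors. In Arabidopsis and tomato, HSFA1 proteins are present before heat and start the response, while HSFA2 is itself made in response to heat and keeps target genes active in long or repeated stress. Arabidopsis has a single HSFA2 gene, whereas rice has a small family of them.

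Libraries held 49479059 to 77969214 counts. The shoot markers CAB1R and CAB2R, genes for light-harvesting proteins, stood at 11400 ± 1660 and 15600 ± 4130 CPM (SD, n = 3) in the wet control. The root silicon channel gene LSI1 had group means of 16.2 to 25.3 CPM, and the root silicon exporter gene LSI2 had 0 counts in every library. The seed glutelin genes GLUA1 and GLUA2 had group means of at most 0.0323 and 2.82 CPM. CPM are read counts put on 1 library size by TMM scaling, which assumes that most genes do not differ between libraries. CPM do not correct for gene length, so levels are compared below within a gene and not between genes. In whole shoots, fewer cells of a type that makes a transcript and less of it per cell cannot be told apart.

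In 4 of the 5 genes, RNA was highest after 30 min of heat and next highest after 60 min. HSFA2A went furthest, from a mean of 0.568 CPM in the wet control to 5930 CPM after 30 min. After 30 min at 40 °C, 5 of 5 HSFA2 genes were higher than in the wet control, by 6.23-fold to 10400-fold. Over all genes tested, the share higher at that time was 19.3%. After 60 min, 5 of 5 were still higher than in the wet control, by 1.81-fold to 247-fold, and 5 of 5 were lower than at 30 min. Among all genes, 16.2% were higher than in the wet control at 60 min and 13.9% lower than at 30 min. In drought, 0 of the 5 were past the threshold, and in mild drought 0.909% of all genes were higher and 0.528% lower. Those shares were 1.64% and 1.05% in severe drought, so a count of 0 among 5 genes says little about them. HSFA2D was the one whose drought libraries did not overlap the wet control, without a share over all genes to set beside it.

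**Figure D1:**
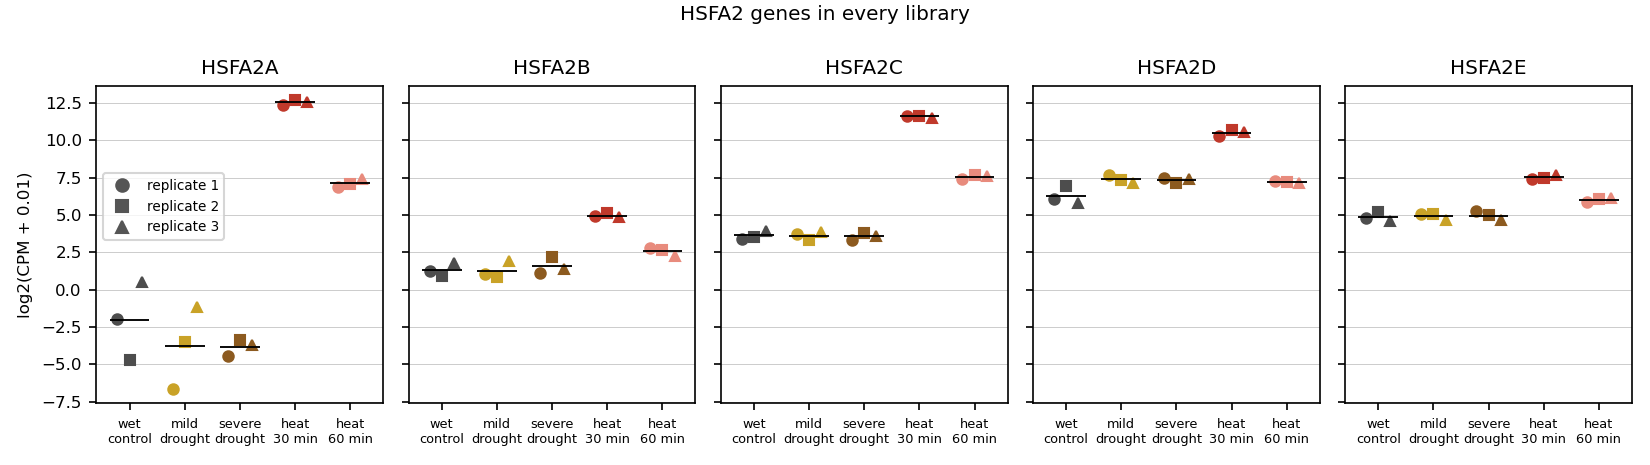
RNA of the 5 HSFA2 genes in each of the 15 libraries, as log2 of TMM-scaled CPM plus 0.01, with symbols for the 3 replicates and a line at the mean of their log2 values. All heat libraries lie above the wet control libraries in all 5 panels, and HSFA2A spreads from 0 to 1.43 CPM across the unheated libraries. How many of all genes separate in this way was not counted.

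HSFA2A was almost silent without heat. Its wet control libraries had 0.249, 0.0277 and 1.43 CPM in replicates 1, 2 and 3, which are 20, 2 and 106 counts. Mild drought had 0, 0.0798 and 0.438 CPM, and severe drought had 0.0367, 0.0865 and 0.0673 CPM. Of these 9 libraries 3 held fewer counts than the floor of 3, and wet control replicate 3 stood highest of the 9. After 30 min of heat the 3 libraries had 5260, 6480 and 6040 CPM, and after 60 min they had 118, 136 and 167 CPM. The heat libraries at either time overlapped no unheated library. How many of all genes separate likewise was not counted, here or for the genes below. Against the wet control (0.568 ± 0.752 CPM, SD, n = 3), the rise at 30 min was 13.35 ± 1.27 on the log2 scale (SE; adjusted p = 3.1e-06, quasi-likelihood F-test of edgeR, Benjamini-Hochberg adjusted over all genes tested, as for each adjusted p without another tool's name). That change ranked 5 of 20462 from the highest. Its size depends on the uneven wet control libraries: it was 15.32 without wet control replicate 3 (106 counts) and 12.70 without wet control replicate 2 (2 counts). At 60 min the log2 fold change over the wet control was 7.95 ± 1.06 (adjusted p = 0.00011), with 9.94 and 7.33 in those same alternatives.

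HSFA2C had an even level without heat. Its protein has been linked in rice to the control of a cytosolic ClpB (HSP100) gene. The wet control libraries had 10.7, 11.4 and 15.3 CPM, mild drought 13, 9.78 and 14.6 CPM, and severe drought 10.2, 14.1 and 12.1 CPM. Those 9 libraries overlapped fully between the 3 groups. After 30 min of heat HSFA2C had 3200, 3110 and 2920 CPM, and after 60 min 173, 202 and 192 CPM. The rise at 30 min was 7.95 ± 0.26 on the log2 scale, 247-fold (95% interval 7.37 to 8.52 log2, adjusted p = 1e-10), and it ranked 70 of 20462. At 60 min HSFA2C was 15.2-fold above the wet control (3.92 ± 0.21 log2, adjusted p = 4e-08).

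HSFA2D is known in rice for a role in growth form, through shoot gravitropism and tiller angle. Its wet control libraries had 67.7, 121 and 56 CPM, and the 3 libraries at 30 min of heat had 1220, 1660 and 1470 CPM. It rose by 4.15 ± 0.29 on the log2 scale at 30 min (adjusted p = 1.1e-07), rank 317 of 20462. The 60 min libraries had 156, 146 and 141 CPM, all above the wet control libraries, a 1.81-fold rise (0.85 ± 0.25 log2, adjusted p = 0.022). That last call was lost when wet control replicate 1 or 3 was left out (0.74 and 0.65 log2, adjusted p = 0.077 and 0.081), and likewise for heat 60 min replicate 1 or 2 (adjusted p = 0.057 each). With only the wet control and 60 min groups in the model, its adjusted p = 0.082.

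HSFA2E and HSFA2B had the smallest rises of the 5 at 30 min. HSFA2E, whose rice protein has been linked to heat and salt tolerance when made in Arabidopsis, had 27.8, 36.1 and 23.9 CPM in the wet control. It had 167, 180 and 201 CPM after 30 min and 58.6, 66.4 and 70.7 CPM after 60 min of heat. The 3 groups did not overlap, with rises of 2.64 ± 0.20 log2 at 30 min (adjusted p = 2.6e-07) and 1.15 ± 0.19 at 60 min (adjusted p = 0.00055). HSFA2B had 2.34, 1.9 and 3.45 CPM in the wet control, 29.9, 34.3 and 28.8 CPM after 30 min and 6.85, 6.41 and 4.83 CPM after 60 min. It rose by 3.60 ± 0.35 log2 at 30 min (adjusted p = 3.7e-06) and by 1.24 ± 0.33 at 60 min (adjusted p = 0.012). The 60 min call of HSFA2B was lost without wet control replicate 2 (1.00 log2, adjusted p = 0.063).

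Many genes responded to heat, and the counts of HSFA2 genes are to be read against that background. At 30 min, 19.3% of the genes tested were higher and 19.6% lower than in the wet control, with a median log2 fold change over all genes of -0.14 and over the 5 HSFA2 genes of 4.15. At 60 min, 16.2% were higher and 15.8% lower, with medians of -0.09 over all genes and 1.24 over the 5. When libraries were scaled by their totals alone, without TMM factors, the median over all genes moved by -0.88 at 30 min and by -0.12 at 60 min. It gave 1480 higher and 12475 lower genes at 30 min (3946 and 4007 with TMM), and 2582 and 3813 at 60 min (3311 and 3235). The 5 HSFA2 genes were higher at both times under that scaling too, by 1.77 to 12.43 log2 at 30 min and 0.77 to 7.80 log2 at 60 min.

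**Figure D2:**
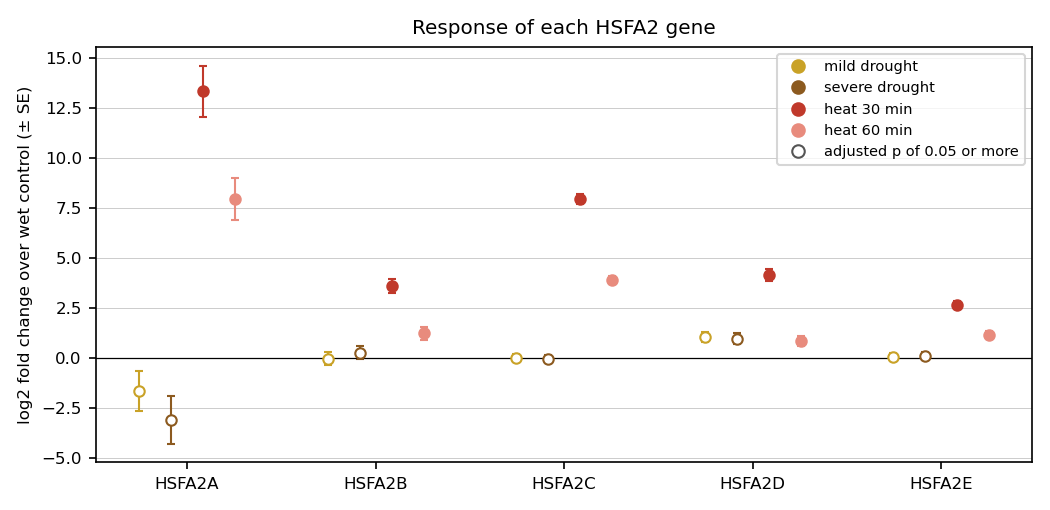
Log2 fold change over the wet control (± SE) of each HSFA2 gene in both droughts and at both heat times, with open symbols for an adjusted p of 0.05 or more. Values at 30 min of heat run from 2.64 to 13.35 and at 60 min from 0.85 to 7.95, and the drought values are open in all 5 genes.

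Between 30 and 60 min of continued heat, RNA of all 5 HSFA2 genes was lower, while the plants were still at 40 °C. HSFA2A had 42.2-fold less at 60 min than at 30 min (-5.40 ± 0.92 log2, adjusted p = 0.0012), from 5930 ± 617 to 140 ± 24.6 CPM. HSFA2C changed by -4.02 ± 0.21 log2 (adjusted p = 7.8e-08), from 3070 ± 140 CPM to the 3 values near 189 CPM given above, and HSFA2D by -3.29 ± 0.28 (adjusted p = 3.6e-06), from 1450 ± 219 to 148 ± 7.88 CPM. HSFA2B changed by -2.36 ± 0.33 (adjusted p = 0.00029), and HSFA2E by -1.48 ± 0.19 (adjusted p = 0.00014), a 2.8-fold difference that was the smallest of the 5. In this comparison 10.4% of genes tested were higher and 13.9% lower, and the medians were -0.02 over all genes and -3.29 over the 5. With total counts only, the median over all genes moved by 0.76 and the split became 10067 higher and 679 lower (2121 and 2850 with TMM). Under that scaling the 5 HSFA2 genes were still lower at 60 min, by -4.63 log2 for HSFA2A and -0.72 for HSFA2E at the ends of the range. The time points are separate sets of plants, so this is a difference between groups and not a course within a plant.

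In drought HSFA2D was the only one of the 5 whose libraries stood clear of the wet control, and it did not pass the threshold. The share of all genes tested that stood clear in this way is not given here. It had 208, 163 and 143 CPM in mild drought and 174, 140 and 169 CPM in severe drought, against at most 121 CPM in the wet control. The log2 fold change was 1.07 ± 0.26 in mild drought (95% interval 0.50 to 1.64, unadjusted p = 0.0011, adjusted p = 0.058). In severe drought it was 0.98 ± 0.26 (interval 0.41 to 1.55, unadjusted p = 0.0021, adjusted p = 0.063). DESeq2 passed both (adjusted p = 0.0012 and 0.0036), as did scaling by total counts only (0.043 and 0.037) and edgeR without wet control replicate 2 (1.43 and 1.35 log2, adjusted p = 0.01 and 0.006), the wet library with 121 CPM. Without mild drought replicate 3 the mild value was 1.19 (adjusted p = 0.035). No call was made in 9 of 13 alternatives in mild drought and in 10 of 13 in severe drought. The lowest values over the alternatives were 0.87 and 0.78 log2. Passing settings differed in their calls over all genes, which were 294 and 550 in the main test. DESeq2 passed 2290 and 1811, totals alone 222 and 457, and leaving out wet control replicate 2 gave 932 and 617. Without mild drought replicate 3, 1302 passed in mild drought.

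The other 4 genes gave no call in drought. HSFA2C changed by 0.00 in mild (95% interval -0.42 to 0.43) and -0.04 in severe drought (-0.46 to 0.39). HSFA2E changed by 0.05 (-0.36 to 0.47) and 0.11 (-0.31 to 0.52). HSFA2B, with 2.1, 1.76 and 3.68 CPM in mild and 2.17, 4.51 and 2.61 CPM in severe drought, changed by -0.03 (-0.75 to 0.70) and 0.28 (-0.44 to 1.00). Differences inside these intervals were not detectable here. HSFA2A was lower in severe drought by -3.09 ± 1.18 log2 (adjusted p = 0.18), on 12 counts in all in severe drought, and -1.09 without wet control replicate 3. In mild drought it changed by -1.64 ± 0.99 (adjusted p = 0.35). Leaving out wet control replicate 3 gave 0.37 there, and leaving out mild drought replicate 3 gave -3.54.

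Counts of calls in drought were low over the whole table as well. Mild drought had 0.909% of genes higher and 0.528% lower. At an unadjusted p under 0.05 (edgeR) were 1 HSFA2 gene and 4498 of the 20462 genes tested. DESeq2 passed 1 HSFA2 gene and 2290 of all genes. Severe drought had 1.64% higher and 1.05% lower. At an unadjusted p under 0.05 (edgeR) were 2 HSFA2 genes and 3876 of all genes. DESeq2 passed 1811 of all genes and 2 HSFA2 genes, which were HSFA2D and HSFA2A (-3.15 log2, adjusted p = 0.035). Scaling by totals alone turned the split in mild drought from 186 higher and 108 lower to 99 and 123, and in severe drought from 335 and 215 to 200 and 257. Severe and mild drought were also compared with each other, and edgeR called 0% of genes higher and 0% lower. There, 0 HSFA2 genes were at an unadjusted p under 0.05 (edgeR; 569 of all genes were), 0 passed by DESeq2, and HSFA2D changed by -0.09 ± 0.25.

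Ordered by group mean, HSFA2A, HSFA2B, HSFA2C and HSFA2E put 30 min of heat first and 60 min second, and both of those steps down were past the threshold in each of the 4. For HSFA2B the step from 60 min of heat (6.03 ± 1.06 CPM) to severe drought (3.1 ± 1.25 CPM) was the narrowest of them, at 0.96 ± 0.32 log2 (adjusted p = 0.035). No step among the 3 unheated groups passed in any of these 4 genes. HSFA2D had another order. Its 30 min mean of 1450 CPM was followed by mild drought (171 ± 33.3), severe drought (161 ± 18.3), 60 min of heat (148 ± 7.88) and the wet control (81.6 ± 34.7). The steps from mild to severe drought (0.09 ± 0.25 log2) and from severe drought to 60 min of heat (0.12 ± 0.25, adjusted p = 0.74) did not pass, and the step from 60 min of heat to the wet control did, within the limits given above for that call.

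The make-up of the summed HSFA2 counts moved with heat. The 5 genes together took 0.0149% of a library's counts in the wet control, 0.0231% in mild drought, 0.0224% in severe drought, 0.695% after 30 min of heat and 0.0607% after 60 min. HSFA2A's share of that sum went from 0.557% ± 0.76 (SD, n = 3) in the wet control to 55.5% ± 1.92 at 30 min and 25.5% ± 3.13 at 60 min. HSFA2C's share went from 10.6% ± 4.31 to 29% ± 2.96 and 34.5% ± 1.56. HSFA2D's share was 63.1% ± 7.54 in the wet control, 78.7% ± 2.34 in mild and 77.3% ± 3.55 in severe drought, 13.5% ± 1.07 at 30 min and 27% ± 3.09 at 60 min. HSFA2E fell in share from 23.6% to 1.71% and stood at 11.9% at 60 min, and HSFA2B had 2.23%, 0.291% and 1.11%. These are shares of counts, which longer transcripts raise, and they are given for the change of each gene across groups, with no test.

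Libraries of 1 group differed in a shared way for some of the genes. HSFA2A, HSFA2B and HSFA2C were each highest in replicate 3 of the wet control, replicate 3 of mild drought and replicate 2 of severe drought, and HSFA2D was lowest in those same 3 libraries. In wet control replicate 3 the 17 name-matched heat shock protein and other heat genes had a median deviation of 0.98 log2 from their group mean, and 13 of the 17 were highest in that library. The corresponding medians were 0.21 in mild drought replicate 3, with 11 of 17 highest there, and 0.11 in severe drought replicate 2, with 9. The part of this spread in the drought values of the HSFA2 genes was not tested beyond leaving out each library.

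Of the 20 other heat shock factor loci, 17 were in the table with a name matched in the reference and 16 could be tested. At 30 min of heat 10 of the 16 rose and 1 fell, with a median of 1.74 log2. At 60 min 10 rose and 0 fell, with a median of 1.15. Of all genes tested, 19.3% were higher and 19.6% lower at 30 min, and 16.2% and 15.8% at 60 min. With total counts only these were 8 and 3 at 30 min (median 0.82) and 7 and 0 at 60 min (median 1.02). The class B factor genes HSFB2B and HSFB2A rose at 30 min by 7.70 ± 0.30 and 6.70 ± 0.23 log2, to 499 ± 43.8 and 335 ± 21.8 CPM. HSFB2C rose by 5.14 ± 0.21 at 30 min and 3.71 ± 0.20 at 60 min, and the class A factor gene HSFA9, known from seed development in Arabidopsis, by 3.39 ± 0.13 and 2.05 ± 0.13. The gene that fell at 30 min, named after its values were seen, was the class C factor gene HSFC1A (-2.16 ± 0.33, from 2.53 ± 0.889 CPM). HSFA1, of the type that starts the response, is named here after its values were seen: it had 53.2 ± 5.07 CPM in the wet control and changed by -0.15 ± 0.14 at 30 min and -0.18 ± 0.14 at 60 min (adjusted p = 0.42 and 0.34).

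Between the heat times, 7 of the 16 other factor genes were lower at 60 min and 2 higher, with a median of -0.48. Over all genes tested these shares were 13.9% and 10.4%. Under total counts only the median turned to 0.27, with 6 lower and 5 higher, beside 3.32% and 49.2% of all genes. HSFB2A (-4.10 ± 0.20) and HSFB2B (-3.53 ± 0.25) were among the lower, and the 2 that were higher at 60 min were HSFC1A (1.84 ± 0.33) and HSFC2A (1.56 ± 0.39). In mild drought 0 of the 16 were past the threshold (DESeq2 passed 1). Of all genes tested, 0.909% were higher and 0.528% lower in mild drought, and 1.64% and 1.05% in severe drought. In severe drought 2 rose, the class C genes HSFC2B (3.74 ± 0.61, adjusted p = 0.0064) and HSFC2A (1.82 ± 0.39, adjusted p = 0.027), and both were lost with only those 2 groups in the model (adjusted p = 0.14 and 0.21). HSFC2A was also lost when wet control replicate 1 or 3 or severe drought replicate 2 was left out (adjusted p = 0.10, 0.074 and 0.096). Whether these responses differ from those of the HSFA2 genes was not tested.

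**Figure D3:**
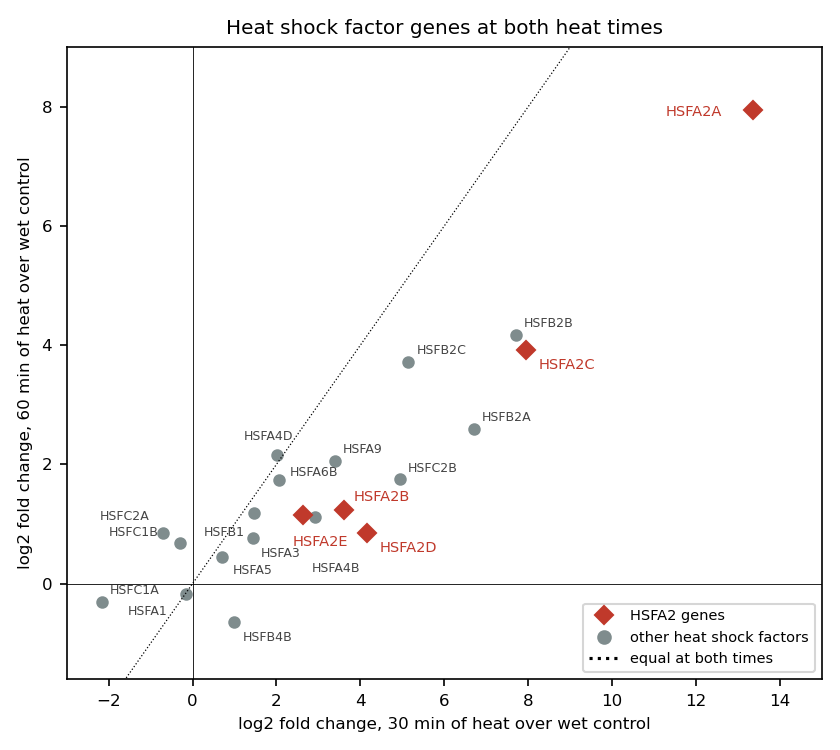
Log2 fold change over the wet control at 30 min (x axis) and 60 min of heat (y axis) for the 5 HSFA2 genes (diamonds) and the 16 other heat shock factor genes tested (circles), with a dotted line where both are equal. All 5 HSFA2 genes lie below the line, as in the direct comparison of the heat times, and HSFA2A lies far to the right at 13.35 and 7.95. Both axes use the same wet control libraries, so the position along the line is not independent on the axes.

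A list of chaperone and other heat genes, placed downstream of class A factors when it was drawn up, holds 29 loci, of which 17 were name-matched and tested. Whether HSFA2 factors act on these rice loci was not tested. All 17 rose at 30 min (median 11.11 log2, range 1.25 to 14.26) and all 17 rose at 60 min (median 9.29). Of all genes tested, 19.3% were higher at 30 min and 16.2% at 60 min. Under total counts only 16 of 17 rose at 30 min, with a median of 10.21, beside 7.23% of all genes. CLPB3, a gene for a ClpB-type disaggregase, rose from 13.3 ± 1.65 to 10400 ± 191 CPM at 30 min (9.62 ± 0.25 log2) and stood at 655 ± 82 CPM at 60 min. HSP81-1, a gene for an HSP90 chaperone, rose by 6.82 ± 0.19 and 4.83 ± 0.18 log2, and the small heat shock protein gene HSP24.1 by 9.69 ± 0.44 and 7.27 ± 0.40. Reads of tandem small heat shock protein genes may be shared, since their sequences are close.

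Between the heat times, 12 of these 17 genes were lower at 60 min and 0 higher, beside 13.9% and 10.4% of all genes tested. Their median was -1.78 log2, beside -3.29 for the 5 HSFA2 genes. With total counts only, 8 of 17 were lower and 1 higher (median -1.03), beside 3.32% and 49.2% of all genes. The 3 named genes changed by -3.99 ± 0.19 (CLPB3), -1.98 ± 0.15 (HSP81-1) and -2.42 ± 0.32 (HSP24.1). In mild drought 0 of 17 were past the threshold (median -0.21, DESeq2 passed 1) and in severe drought 0 (median -0.16, DESeq2 passed 3). Few genes passed in drought over the whole table too: 0.909% higher and 0.528% lower in mild, 1.64% and 1.05% in severe drought. Of 7 loci chosen as partners that bind or restrain heat shock factors, such as HSP90 and HSP70 chaperones, 1 was name-matched, which was HSP81-1 again.

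Likeness to each HSFA2 gene was measured over the 15 libraries among 12803 genes with a mean of at least 5 CPM, as the root mean square (RMS) difference in log2 CPM after centring each gene on its own mean. HSFA2C had a close match in LOC_Os03g13450.MSUv7.0, at an RMS of 0.17 beside a median of 3.19 over all genes compared. That gene rose by 8.07 ± 0.24 log2 at 30 min and 4.08 ± 0.20 at 60 min. The second gene on that list was the factor gene HSFB2B, with LOC_Os08g43334.MSUv7.0 as its identifier and an RMS of 0.27, and the third was LOC_Os07g43740.MSUv7.0 (0.37). HSFA2E was nearest to LOC_Os05g11850.MSUv7.0 (0.13), LOC_Os01g35040.MSUv7.0 (0.13) and LOC_Os10g27230.MSUv7.0 (0.14), beside a median of 1.09. Those 3 genes rose at 30 min by 2.49 to 2.78 log2, beside 2.64 for HSFA2E. Fold changes near those of HSFA2C and HSFA2E follow from the choice of genes, because the heat libraries are among the 15 used.

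HSFA2B was nearest to LOC_Os01g67330.MSUv7.0 (0.29), LOC_Os01g67600.MSUv7.0 (0.30) and LOC_Os05g43040.MSUv7.0 (0.30), beside a median of 1.46. HSFA2D was nearest to LOC_Os03g52430.MSUv7.0 (0.42), LOC_Os03g18200.MSUv7.0 (0.45) and LOC_Os12g03990.MSUv7.0 (0.47), beside a median of 1.48. The fold changes of these 3 in severe drought were 0.41, 0.11 and 0.29 log2, below the 0.98 of HSFA2D. HSFA2A was nearest to LOC_Os02g48140.MSUv7.0 (0.78), LOC_Os07g47840.MSUv7.0 (0.81) and LOC_Os11g05170.MSUv7.0 (1.05), beside a median of 6.51. These distances rest in part on unheated libraries with few counts. Within the family the closest pair was HSFA2B and HSFA2E (RMS 0.62) and the farthest HSFA2A and HSFA2E (5.59). Many other genes were nearer to each of the closest pair: HSFA2E ranked 264 from HSFA2B, and HSFA2B ranked 914 from HSFA2E. All these distances share the same 15 libraries and describe them, with no test.

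The genes next to HSFA2 loci in the order of the table were described after their values had been seen, 2 on each side, 20 in all of which 19 could be tested. At 30 min of heat 9 of the 19 were higher and 2 lower, beside 19.3% and 19.6% of all genes tested, and at 60 min 7 were higher and 0 lower, beside 16.2% and 15.8%. With total counts only, 4 were higher and 8 lower at 30 min, and 4 higher and 0 lower at 60 min. The 4 higher at both times under that scaling were the loci LOC_Os03g58170.MSUv7.0, LOC_Os07g08150.MSUv7.0, LOC_Os07g08160.MSUv7.0 and LOC_Os10g28360.MSUv7.0. LOC_Os03g58170.MSUv7.0, the next locus after HSFA2E, went from 4.84 ± 1.46 CPM in the wet control to 1100 ± 24 CPM at 30 min (7.83 ± 0.29 log2) and 271 ± 5.71 CPM at 60 min (5.81 ± 0.27). HSFA2E itself rose by 2.64 and 1.15. That neighbour was also higher in severe drought (1.54 log2, adjusted p = 0.0036), where HSFA2E changed by 0.11.

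On chromosome 7, LOC_Os07g08150.MSUv7.0 and LOC_Os07g08160.MSUv7.0, which follow HSFA2B, rose by 5.69 ± 0.35 and 6.01 ± 0.40 log2 at 30 min. At 60 min they stood 5.73 ± 0.35 and 5.61 ± 0.39 above the wet control. Between the heat times they changed by 0.04 (adjusted p = 0.93) and -0.40 (adjusted p = 0.39), whereas HSFA2B changed by -2.36. LOC_Os10g28360.MSUv7.0, placed 2 loci after HSFA2C, rose by 3.35 ± 0.31 and 2.40 ± 0.30 log2. The loci next to HSFA2A and HSFA2D on the lower side, LOC_Os03g53310.MSUv7.0 and LOC_Os03g06620.MSUv7.0, rose by 0.66 ± 0.12 and 0.49 ± 0.13 log2 at 30 min, and with total counts only these values turned to -0.23 and -0.39. The strand setting of the counting is not given in the sources used here, so reads of overlapping neighbours may be shared.

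**Figure D4:**
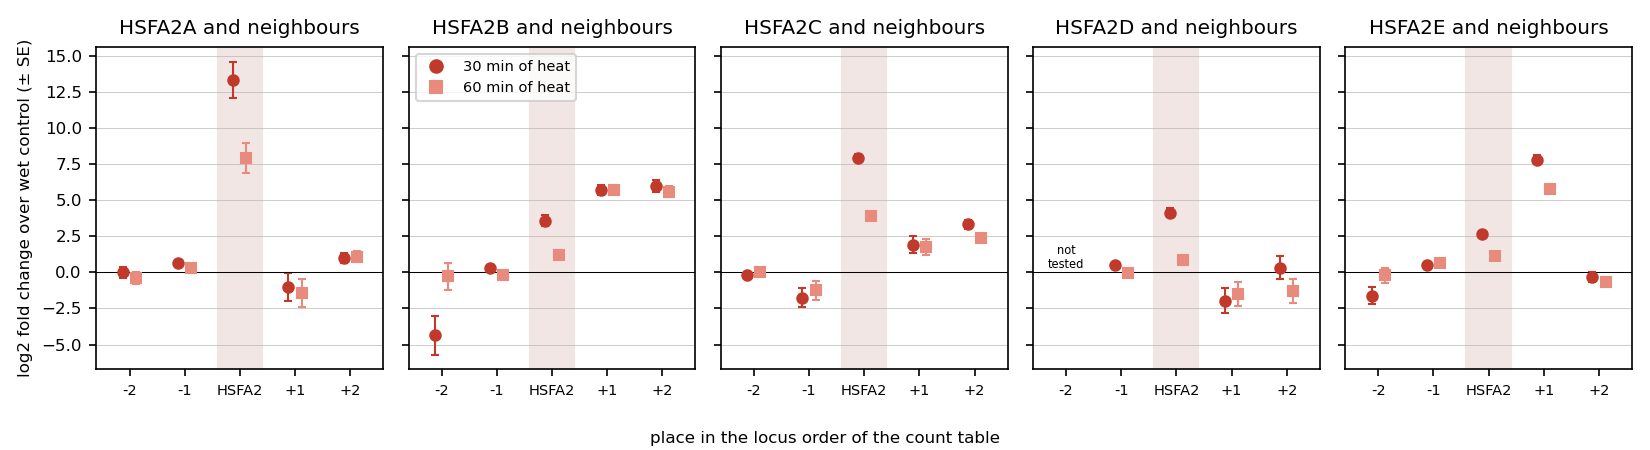
Log2 fold change over the wet control (± SE) at 30 and 60 min of heat for each HSFA2 gene (shaded) and the 2 loci before and after it in the order of the count table; 1 locus was not tested. The loci after HSFA2B and the first after HSFA2E lie above the HSFA2 gene they follow, at 5.69, 6.01 and 7.83 at 30 min, while the loci around HSFA2A lie between -1.01 and 1.01 at 30 min and between -1.43 and 1.09 at 60 min.

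The reference annotation used for names (RefSeq, assembly ASM3414082v1) places HSFA2A, HSFA2D and HSFA2E on chromosome 3, HSFA2B on chromosome 7 and HSFA2C on chromosome 10. It lists 5 transcripts for HSFA2A, of which 4 code for protein and 1 does not, and 3 for HSFA2D, of which 1 is coding and 2 are noncoding. HSFA2B and HSFA2E have 1 coding transcript each. HSFA2C is listed there as a transcribed pseudogene with 1 noncoding transcript. Entries were found by gene name on the chromosome of each locus identifier, and not by the locus itself. The entry for HSFA2C also carries the name ARD1, and that for HSFA2D the names ARD and ARD2. Whether these entries are the loci that were counted was not checked. The deposited values are counts per gene, so they do not separate these transcripts, and a rise in HSFA2A or HSFA2D counts does not say which of them rose. Coordinates are not given, because the build behind the counts is not given in the sources used here.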

How the data were processed

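The deposited file holds raw read counts per gene for 15 libraries of whole rice shoots, made by the authors with Trimmomatic, HISAT2 and featureCounts (per the submitters' processing notes, without versions). A NEBNext kit made stranded mRNA libraries, per the labels' protocols. The sources used here give neither the genome build nor the counting strand. Titles gave each sample's group and replicate number. The test was edgeR 4.0.16 in R 4.3.3: filterByExpr (minimum count 10, minimum total 15), TMM factors, a robust quasi-likelihood model with 1 mean per group over all 15 libraries, and Benjamini-Hochberg adjustment over 20462 genes with a threshold of 0.05. An SE is the log2 fold change divided by the square root of F, 95% intervals use 10 residual degrees of freedom, and each mean ± SD covers the TMM-scaled CPM of 3 libraries. Library totals were 49479059 to 77969214 counts, and 3 counts, taken as the floor, were 0.0385 to 0.0606 CPM by unscaled totals. This floor covers only counting error, because without molecular identifiers reads may repeat a molecule. TMM factors were 0.622 to 0.706 at 30 min of heat and 0.999 to 1.32 in the other groups.

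The 5 genes, the lists and the tests were chosen with earlier results of these data known, so no list is independent evidence. HSFA1, HSFC1A and the neighbouring loci were named after their values were seen; other names followed a rule: the 5 genes, the 3 genes most like each, and from each list up to 3 loci past the threshold with the smallest p at 30 min of heat, 2 at 60 min and 2 in severe drought. Of 60 fixed list loci 55 were in the table and 40 matched a name in the reference; 4 name aliases were chosen after the reference was seen. Replicates of a group differed by a chi-square per gene of 31.1 to 495, so none was a library deposited more than once. Same-numbered libraries deviated together by the rule (every correlation over 0.1) in 1 of 10 pairs of groups, 30 and 60 min of heat, a pairing read from the values since the labels give only numbers. Alternatives were RLE factors, total counts only, no filter, a 2-fold limit, a replicate block, only the compared groups, DESeq2 1.42.0 and each library left out; all fixed list loci were added after seeing the data. The method was tested on simulated counts. Promoter motifs and shares per coding length were not analysed here.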

Additional observations from a re-analysis of the deposited data

Results flagged for a closer look

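The response to heat differed between 30 and 60 min for each of the 5 HSFA2 genes, by the direct test of 60 min against 30 min (edgeR, n = 3 libraries a group). The difference was -5.40 ± 0.92 log2 for HSFA2A (adjusted p = 0.0012), -4.02 ± 0.21 for HSFA2C (adjusted p = 7.8e-08) and -3.29 ± 0.28 for HSFA2D (adjusted p = 3.6e-06). It was -2.36 ± 0.33 for HSFA2B (adjusted p = 0.00029) and -1.48 ± 0.19 for HSFA2E (adjusted p = 0.00014). Each of the 5 had all 3 libraries at 60 min below all 3 libraries at 30 min. The share of all genes without overlap is not given here. By the same test 10.4% of all genes tested were higher and 13.9% lower at 60 min.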

How the results depend on the processing

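The 5 HSFA2 genes stayed past the threshold at 30 min and from 30 to 60 min in all 13 alternatives run for each comparison. The replicate block gave 5 of 5 in each heat comparison and 0 in drought and changed no call of an HSFA2 gene. It moved the other factors' counts from 11 to 10 at 30 min and from 10 to 9 at 60 min. At 60 min the count was 4 to 5. In mild drought it was 1 with total counts only, 1 with DESeq2 and 0 to 1 with a library left out. In severe drought it was 1, 2 and 0 to 1. Among other heat shock factors, the severe drought count was 0 with the compared groups alone and 1 to 2 with a library left out, and the mild drought count 1 with DESeq2 and 0 to 1. For the heat shock protein list, DESeq2 passed 1 in mild and 3 in severe drought, and left-out libraries gave 0 to 1 and 0 to 4. For the partners, DESeq2 passed 1 in each drought and left-out libraries gave 0 to 1. All fixed loci gave 26 and 26 heat shock protein loci past the threshold at 30 and 60 min, and 5, 6 and 4 partner loci at 30 min, 60 min and between the times.

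Over all genes, DESeq2 passed 2290 in mild and 1811 in severe drought (294 and 550 with edgeR), and the compared groups alone gave 0 and 32. Left-out libraries gave 30 to 1302 and 215 to 617. A 2-fold limit gave 4762, 3500, 2356 and 196 genes at 30 min, 60 min, between the heat times and in mild drought. HSFA2A did not pass the filter in severe drought with the compared groups alone. Few counts limit HSFA2A without heat. Shares per coding length were not run.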
